A study of Mus musculus with 6 samples.

Results

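The tumor suppressor p53 and 9 of its well-known target genes were followed in RNA-seq libraries from cultured mouse retinal ganglion cells (RGCs), the neurons whose axons form the optic nerve. The 10 genes were chosen by symbol, Trp53 for p53 itself and Cdkn1a, Mdm2, Ccng1, Eda2r, Phlda3, Zmat3, Trp53inp1, Plk2 and Perp for the targets, out of 43346 Ensembl mouse genes in the tables. All 10 passed the filter on low counts, which kept 15747 genes. Another 45 p53 targets and 21 regulators of p53, listed separately, were counted beside them. The 10 genes and these lists were chosen with earlier results of these data known, so their called shares are no independent test.

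RGCs of C57BL/6 mice, obtained as both males and females, were immunopanned with an antibody to CD90.1, grown with forskolin, BDNF and CNTF, and given an adeno-associated virus (AAV) 4 h after plating. The control AAV encoded EGFP, the Sox11 AAV encoded the developmental transcription factor Sox11 followed by EGFP, and the Sox11 K91A AAV encoded the same factor with alanine in place of lysine 91, a site of SUMOylation. The promoter in the viruses is not given in the sources used here. The RNA-seq protocol names embryonic day 18 as the age, the general culture protocol postnatal day 2, and the names of the tables postnatal day 0. Wells held 250000 cells and received 1.5 μl of AAV, about 100000 vector genomes per cell, and RNA was taken 72 h after plating. Each of the 3 groups had 2 libraries. The labels describe 3 RNA samples run in duplicate and do not say whether the 2 libraries of a group came from separate cultures, so the p-values below measure only the spread between these libraries.

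p53 is a transcription factor that is made continually and kept low by the ubiquitin ligase Mdm2, which marks it for destruction. DNA damage and other stresses release p53 from Mdm2, and it then binds paired short repeats near its target genes. The targets halt the cell cycle, repair DNA, alter metabolism, trigger apoptosis, or feed back on p53 itself. In RGCs, p53 is known for its part in developmental cell death and in the response to optic nerve injury. Because p53 is controlled largely at the level of protein, the mRNA of its targets is a more usual readout than its own mRNA, and no protein was measured in these libraries.

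The promoters of Ccng1 and Cdkn1a are shown because they held a p53 response element, and that of Eda2r because Eda2r had the largest rise of the 10 genes. The sequences are RefSeq promoter windows of 300 bases on GRCm38.p6, from 250 bases before the start of the gene to 50 after it, written 5′ to 3′ on the strand of the gene, with the response element in capitals. The windows span chr11:40755237-40755536 on the minus strand for Ccng1, chr17:29090729-29091028 on the plus strand for Cdkn1a and chrX:97377160-97377459 on the minus strand for Eda2r.
Ccng1: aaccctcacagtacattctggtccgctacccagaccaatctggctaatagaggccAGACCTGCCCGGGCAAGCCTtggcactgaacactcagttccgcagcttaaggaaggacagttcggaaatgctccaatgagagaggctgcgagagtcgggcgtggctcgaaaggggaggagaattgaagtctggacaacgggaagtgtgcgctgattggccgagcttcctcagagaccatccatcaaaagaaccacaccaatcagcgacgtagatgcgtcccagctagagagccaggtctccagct
Cdkn1a: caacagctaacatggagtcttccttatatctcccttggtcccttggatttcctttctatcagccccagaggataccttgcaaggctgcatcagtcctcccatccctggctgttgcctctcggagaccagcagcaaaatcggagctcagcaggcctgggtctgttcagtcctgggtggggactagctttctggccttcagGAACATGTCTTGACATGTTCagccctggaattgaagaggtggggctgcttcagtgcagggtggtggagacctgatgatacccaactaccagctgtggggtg
Eda2r: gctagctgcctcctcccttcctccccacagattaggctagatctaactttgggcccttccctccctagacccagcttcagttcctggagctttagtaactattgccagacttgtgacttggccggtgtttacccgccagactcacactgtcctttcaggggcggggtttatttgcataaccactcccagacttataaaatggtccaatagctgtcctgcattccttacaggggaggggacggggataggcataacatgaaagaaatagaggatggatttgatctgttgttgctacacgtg

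A p53 response element was searched as 2 adjacent 10-base units, allowing 2 mismatches among the 20 bases outside the central C and G of each unit. The pattern reads the same on both strands. It was found in 107 of 32851 RefSeq promoter windows, or 0.326%. Windows were matched for 7 of the 10 genes, 8 windows in all, and 2 of them held the element. The Ccng1 element, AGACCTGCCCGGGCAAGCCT, lay 195 to 176 bases before the start, and the Cdkn1a element, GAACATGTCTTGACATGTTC, lay 51 to 32 bases before the upstream of the 2 Cdkn1a starts. Each had 1 mismatch. The Eda2r window held neither the element nor a single exact 10-base unit. Exact single units were found in 4 of the 8 windows, those of Ccng1, Cdkn1a, Mdm2 and Trp53, against 8.36% of all windows. No window was matched for Zmat3, Trp53inp1 or Perp. Among the other targets, 1 of 53 windows, that of Gtse1, held the element, and 20.8% held an exact unit. The motif rule was widened after a first search of the windows, so these shares are no test of the 10 genes. They count matches of letters in a short window and say nothing of binding.

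Before the genes themselves, 3 features of the libraries bear on their values. The expected counts, the reads that RSEM assigned to genes, summed to between 27521981 and 37061718 per library. Sox11, counted from the virus and the genome together, was at 234.2 and 331.7 CPM (counts scaled by library size) in the control libraries, at 9178 and 14590 with the Sox11 AAV, and at 11970 and 7026 with the Sox11 K91A AAV. The labels thus matched the transgene, but the virus libraries differed among themselves in its level. Control replicate 2 and Sox11 replicate 2 stood apart on the second principal component, which held 18.2% of the variance, and they had less of the female-expressed Xist, 95.96 and 253.8 CPM against 400.5 to 526.0 in the other 4 libraries, and more of the Y-linked Eif2s3y, 25.15 and 33.91 CPM against 7.658 to 12.63. The 2 libraries of control, and those of Sox11, thus differed in genes that mark sex. They also differed in markers of other cells. The amacrine marker Gad1 was at 36.18 and 2.828 CPM in control replicates 1 and 2, and at 17.47 and 2.232 CPM in Sox11 replicates 1 and 2. Results are given with and without control replicate 2 and Sox11 replicate 2 where they matter. The RGC markers summed to between 8124 and 8936 TPM, which also divides by gene length, in the control libraries, between 3976 and 6484 with Sox11, and between 5388 and 6610 with Sox11 K91A. Of the 9 RGC markers, 3 were lower with Sox11 (Thy1, Slc17a6 and Nefl) and 1 with Sox11 K91A (Slc17a6), which is 33.3% and 11.1% where 20.1% and 10.6% of all genes tested were called in either direction by limma-voom at an FDR under 0.05 and a fold change above 1.2. Rbpms and Pou4f1 lay between 182.57 and 261.66 TPM in all libraries. Of the 9 markers, 2 had a positive log2 fold change with each virus, and none was called higher. Pou4f3 was at 49.67 and 55.44 TPM in control and between 61.24 and 78.76 TPM with the viruses. Sncg was at 1562.45 TPM in Sox11 replicate 2 and between 2301.58 and 2657.5 TPM in all other libraries. Nefl, the largest part of the sum in control, was at 4405.93 and 3607.04 TPM there. It was at 2587.44 and 1397.73 TPM with Sox11, and at 1916.61 and 2659.82 with Sox11 K91A. Thy1 was at 940.49 and 821.92 TPM in control, 341.35 and 62.02 with Sox11, and 200.06 and 402.21 with Sox11 K91A. In bulk samples, fewer cells of a type and less RNA per cell cannot be told apart, and the part of these differences in the results below was not tested.

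Sox11 against control asks what the factor does to gene expression in RGCs. Trp53 and 5 of its targets, Ccng1, Eda2r, Phlda3, Trp53inp1 and Plk2, rose with the Sox11 AAV, from 1.65-fold for Trp53 to 13.9-fold for Eda2r. Cdkn1a, Mdm2, Zmat3 and Perp did not pass the test. The test was limma-voom on all 6 libraries with Benjamini-Hochberg adjustment over 15747 genes, an FDR under 0.05 and a fold change above 1.2. Thus 6 of 10 genes were called, all higher, where 9.96% of all genes tested were called higher and 20.1% in either direction. In 9 of 10 genes both Sox11 libraries were above both control libraries, against 30.9% of all genes. The median log2 fold change of the 10 genes was 0.97, and that of all genes tested was 0.01.

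With the Sox11 K91A AAV, Trp53, Ccng1, Eda2r, Trp53inp1 and Plk2 rose against the same control libraries, from 1.72-fold for Trp53 to 14.1-fold for Eda2r. That is 5 of 10 genes, all higher, where 5.81% of all genes tested were called higher and 10.6% in either direction. The same 9 genes were above both control libraries in both Sox11 K91A libraries, against 31.2% of all genes, and the median log2 fold change of the 10 genes was 1.00, against 0.02 for all genes. Because both comparisons use the same 2 control libraries, a low or high control value moves both at once.

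Single libraries decided these calls. Without Sox11 replicate 2, limma-voom called 0 of 16206 genes with Sox11, although 3347 genes, 6 of the 10 among them, had an unadjusted p under 0.05. With Sox11 K91A the calls rested likewise on control replicate 2 and on Sox11 K91A replicate 1. Leaving out both control replicate 2 and Sox11 replicate 2 left single libraries of control and Sox11. All of the spread then came from the 2 Sox11 K91A libraries, so calls from that fit are no result about the 10 genes. Over the libraries left out, singly or as this pair, the log2 fold change with Sox11 ran from 0.20 to 0.45 for Zmat3. For Eda2r it ran from 3.06 to 4.40. It ran from 1.429 to 2.305 for Ccng1, from 0.35 to 0.796 for Cdkn1a, and from 2.056 to 2.853 for Trp53inp1. Wherever a group was left with 1 library, that library was assumed to vary like the other groups. The log2 fold changes of the 9 genes that were higher stayed above 0 whichever library was left out. That sign was all but fixed in advance, because every virus library was above both control libraries in these genes.

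**Figure D1:**
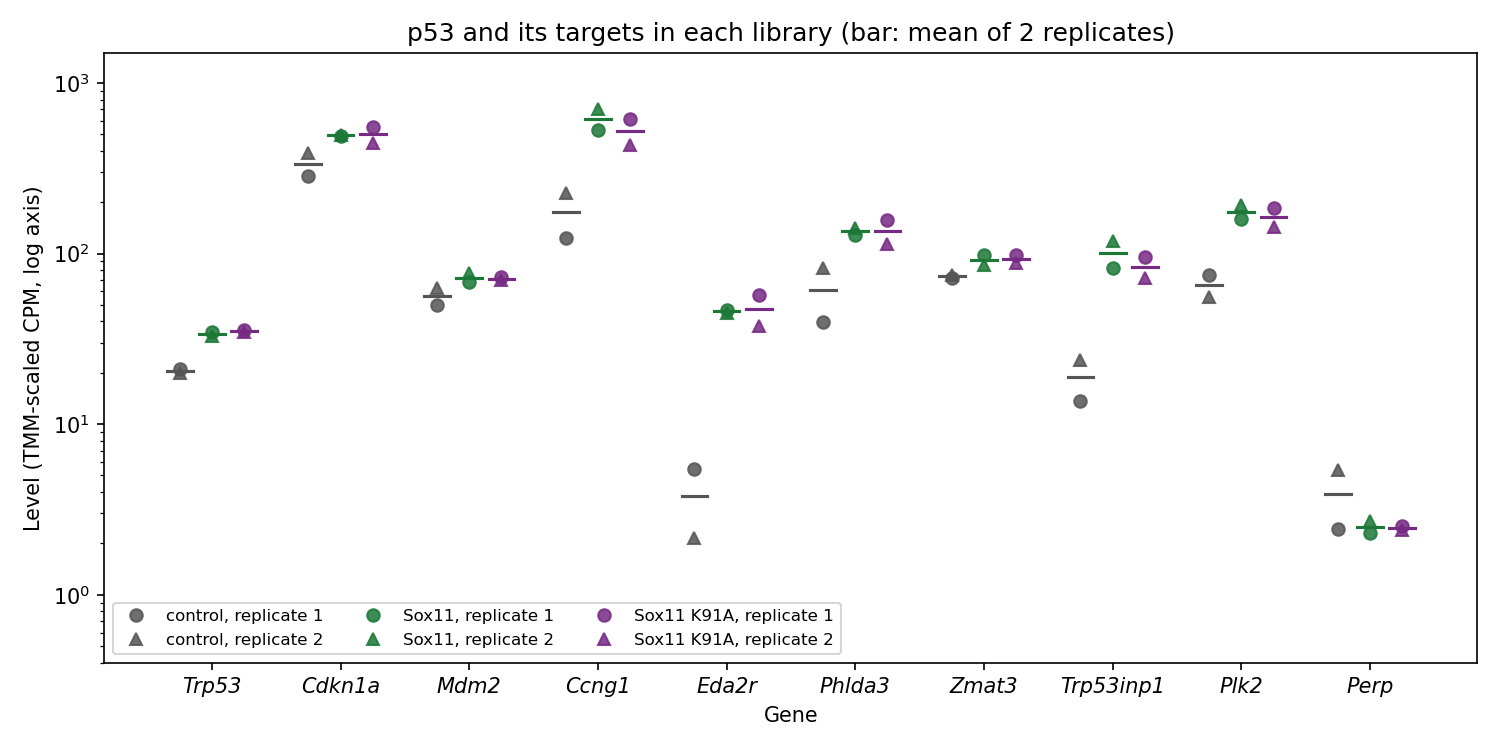
Level of p53 and its targets in each library, in CPM scaled by the TMM method, on a log axis. Circles are replicate 1, triangles replicate 2, and bars the mean of 2 libraries. For 9 of the genes the 4 virus libraries lie above both control libraries, and for Perp they lie among or below them.

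Trp53, on chr11:69580359-69591873 (GRCm38, plus strand), had 21.11 and 19.95 CPM in control, 34.72 and 32.82 with Sox11, and 35.66 and 34.88 with Sox11 K91A. The replicates lay close together and the control and virus groups were far from overlapping. Trp53 rose by 0.72 on the log2 scale with Sox11 (SE 0.14, limma-voom adjusted p = 0.0215) and by 0.78 with Sox11 K91A (SE 0.14, limma-voom adjusted p = 0.0259). The calls were marginal, since leaving out any library other than control replicates 1 and 2 lifted the adjusted p with Sox11 to between 0.0584 and 0.112. Its relatives in the p53 family were scarcely expressed. Trp63, needed in stratified epithelia, had 3 counts in control replicate 1 and 0 in the other 5 libraries. Trp73, which has roles in neuronal development, had between 1 and 16 counts per library and did not pass the test, at log2 fold changes of 1.36 with Sox11 (limma-voom adjusted p = 0.309) and 2.17 with Sox11 K91A (limma-voom adjusted p = 0.137).

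Mdm2 and Ccng1 encode the feedback arm of the pathway. Mdm2, on chr10:117688875-117710758, had 50.24 and 62.66 CPM in control, 68.06 and 76.65 with Sox11, and 73.05 and 69.82 with Sox11 K91A. The groups did not overlap, but the gap between the nearest libraries was smaller than the gap between the control libraries, and Mdm2 was not called (log2 fold change 0.36 with Sox11, limma-voom adjusted p = 0.142, and 0.35 with Sox11 K91A, limma-voom adjusted p = 0.192). Ccng1, on chr11:40748552-40755311, encodes cyclin G1, which recruits a phosphatase that activates Mdm2. Its control libraries were at 122.8 and 226 CPM, against 528.9 and 699.6 with Sox11, and 613 and 430.7 with Sox11 K91A. Every virus library held more Ccng1 than either control library, and Ccng1 rose by 1.87 on the log2 scale with Sox11 (SE 0.32, limma-voom adjusted p = 0.0161) and by 1.63 with Sox11 K91A (SE 0.32, limma-voom adjusted p = 0.0296).

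Cdkn1a, on chr17:29090976-29100727, encodes p21, the inhibitor of cyclin-dependent kinases through which p53 halts the cell cycle. The control libraries held it at 283.3 and 386.9 CPM, against 486.1 and 499.1 with Sox11, and 554.8 and 444.9 with Sox11 K91A. All 4 virus libraries were higher than both control libraries. The log2 fold changes of 0.58 with Sox11 (SE 0.20, limma-voom adjusted p = 0.0782) and 0.59 with Sox11 K91A (SE 0.20, limma-voom adjusted p = 0.0983) did not pass the test. The gene shares 273 exon bases with AC167363.2 on the opposite strand, and whether reads were counted by strand is not given in the sources used here.

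Plk2, Phlda3 and Zmat3 act on growth signals and RNA. Plk2, on chr13:110395046-110400844, is a polo-like kinase that is induced by stress and, in neurons, by synaptic activity. Its control libraries were at 74.75 and 55.96 CPM, against 159.3 and 192.6 with Sox11, and 185.1 and 142.7 with Sox11 K91A. Each virus library held more Plk2 than either control library, and Plk2 rose by 1.44 on the log2 scale with Sox11 (SE 0.21, limma-voom adjusted p = 0.0127) and by 1.33 with Sox11 K91A (SE 0.21, limma-voom adjusted p = 0.0199). Phlda3, on chr1:135766119-135769136, encodes a repressor of Akt, a kinase that promotes survival. The control libraries held it at 39.93 and 82.06 CPM, against 129.1 and 140.5 with Sox11, and 157.4 and 114.3 with Sox11 K91A. The control libraries differed from each other more than the Sox11 libraries did, and the same log2 fold change of 1.22 (SE 0.33) passed the test with Sox11 (limma-voom adjusted p = 0.0431) and not with Sox11 K91A (limma-voom adjusted p = 0.0601). The call with Sox11 was marginal and did not hold under every alternative setting. Over the libraries left out, the log2 fold change of Phlda3 ran from 0.716 to 1.751 with Sox11 and from 0.713 to 1.752 with Sox11 K91A. Zmat3, on chr3:32334792-32366014, encodes an RNA-binding zinc finger protein. Its control libraries were at 72.28 and 74.82 CPM, against 98.74 and 85.37 with Sox11, and 98.4 and 88.2 with Sox11 K91A. The groups did not overlap, yet the log2 fold changes of 0.32 with Sox11 (limma-voom adjusted p = 0.148) and 0.34 with Sox11 K91A (limma-voom adjusted p = 0.16) were not called, and Zmat3 was called under none of the 20 alternative settings tried.

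Eda2r, Trp53inp1 and Perp belong to the arm of the pathway linked to cell death. Eda2r, on chrX:97333840-97377216, encodes a receptor of the TNF receptor superfamily that binds the A2 form of ectodysplasin. It was low in the control libraries, at 5.475 and 2.153 CPM from 153 and 83 counts, and reached 46.59 and 44.95 CPM with Sox11 and 56.91 and 37.65 with Sox11 K91A, from between 1098 and 1834 counts. This was the widest separation of the 10 genes. Eda2r rose by 3.80 on the log2 scale with Sox11 (SE 0.44, limma-voom adjusted p = 0.0112) and by 3.82 with Sox11 K91A (SE 0.44, limma-voom adjusted p = 0.0128), and it was called under 19 of 20 alternative settings in each comparison. Trp53inp1, on chr4:11156431-11174379, encodes a nuclear protein that promotes the modification of p53 under stress and also takes part in autophagy. The control libraries held it at 13.7 and 23.9 CPM, against 82.69 and 118.6 with Sox11, and 94.93 and 72.39 with Sox11 K91A. The control and virus libraries were far from overlapping, and Trp53inp1 rose by 2.41 on the log2 scale with Sox11 (SE 0.31, limma-voom adjusted p = 0.0115) and by 2.16 with Sox11 K91A (SE 0.31, limma-voom adjusted p = 0.0186).

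Perp, on chr10:18845020-18857073, encodes a membrane protein of desmosomes that p53 induces in apoptosis, and it was the exception. Its control libraries were at 2.433 and 5.397 CPM, against 2.293 and 2.715 with Sox11, and 2.514 and 2.401 with Sox11 K91A, from between 63 and 208 counts per library. The virus libraries overlapped with control replicate 1, and only control replicate 2 was above them all. The log2 fold changes of -0.59 with Sox11 (limma-voom adjusted p = 0.366) and -0.62 with Sox11 K91A (limma-voom adjusted p = 0.389) were not called. Without control replicate 2 they were 0.04 and 0.02, so the negative values rest on that library.

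**Figure D2:**
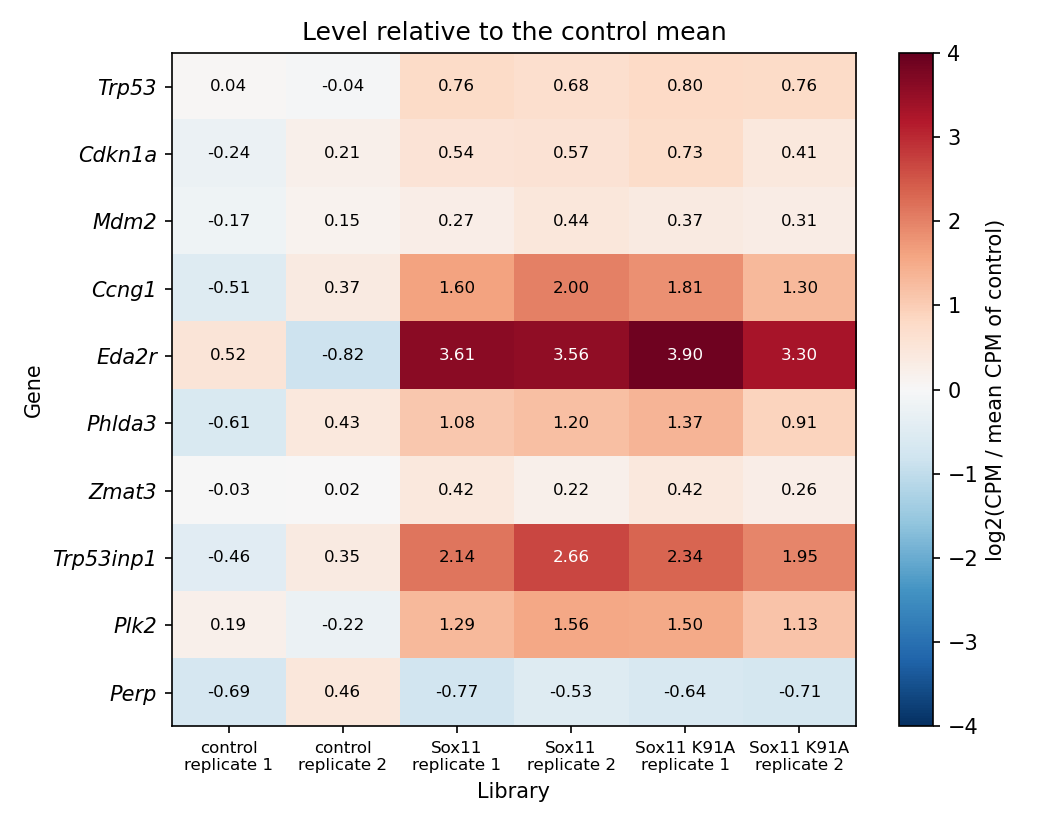
Level of each gene in each library as log2 of its CPM over the mean CPM of the control libraries, from blue (lower) to red (higher). Eda2r reaches 3.90 in Sox11 K91A replicate 1, Ccng1 and Trp53inp1 follow, and Perp is below 0 in all 4 virus libraries and in control replicate 1.

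Per unit of gene length, Cdkn1a was the most abundant of the 10 genes in every group. Its level was 374.5 TPM ± 60.23 (SD, n = 2) in control, 625.5 ± 28.42 with Sox11 and 611.5 ± 101.2 with Sox11 K91A. In control it was followed by Ccng1 at 98.31 ± 35.36 and Phlda3 at 93.47 ± 40.86, which did not differ beyond their spread, and then by Plk2 at 47.93 ± 12.66 and Mdm2 at 41.23 ± 1.916, whose libraries also overlapped. Trp53 stood at 25.25 ± 2.503 TPM and Zmat3 at 20.45 ± 1.93, and the order ended with Trp53inp1 at 6.83 ± 2.249, Perp at 4.315 ± 2.086 and Eda2r at 2.04 ± 1.457, of which neighbours overlapped. With Sox11 the order changed at its lower end. Trp53inp1 reached 39.64 ± 9.921 TPM, above Zmat3 at 27.23 ± 5.664 and overlapping with Trp53 at 41.88 ± 0.9546, and Eda2r reached 22.25 ± 1.167, which left Perp last at 2.995 ± 0.3889. The same order held with Sox11 K91A, where Trp53inp1 was at 32.39 ± 6.314 TPM and Eda2r at 21.6 ± 6.753, the latter overlapping with Zmat3 at 26.29 ± 2.298. The summed level of the 10 genes was between 626.6 and 802.2 TPM in the control libraries and between 1256 and 1663 TPM in the virus libraries.

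Sox11 K91A against Sox11 asks whether the lost SUMOylation site alters what Sox11 does. No difference in p53 or its targets was detected between the 2 viruses. Called genes numbered 0 of 10, where limma-voom called 0% of all 15747 genes. An unadjusted p under 0.05 was reached by 108 genes but none of the 10. That is fewer genes than chance alone would give at this threshold, so the test was conservative in this comparison. DESeq2 called 2 genes of all, neither of them among the 10, and edgeR's quasi-likelihood test called 0. The log2 fold changes of the 10 genes ran from -0.26 for Trp53inp1 (95% interval -0.91 to 0.39) to 0.06 for Trp53 (-0.26 to 0.39). For Eda2r the difference was 0.02 (-0.61 to 0.66), for Ccng1 -0.24 (-1.02 to 0.53), and for Perp -0.03 (-1.14 to 1.08). These intervals leave room for differences of up to about 1 on the log2 scale in the genes with the most spread, so the data do not show that the viruses act alike. Only Trp53 had libraries without overlap, 35.66 and 34.88 CPM with Sox11 K91A against 34.72 and 32.82 with Sox11, where 26.6% of all genes had none.

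**Figure D3:**
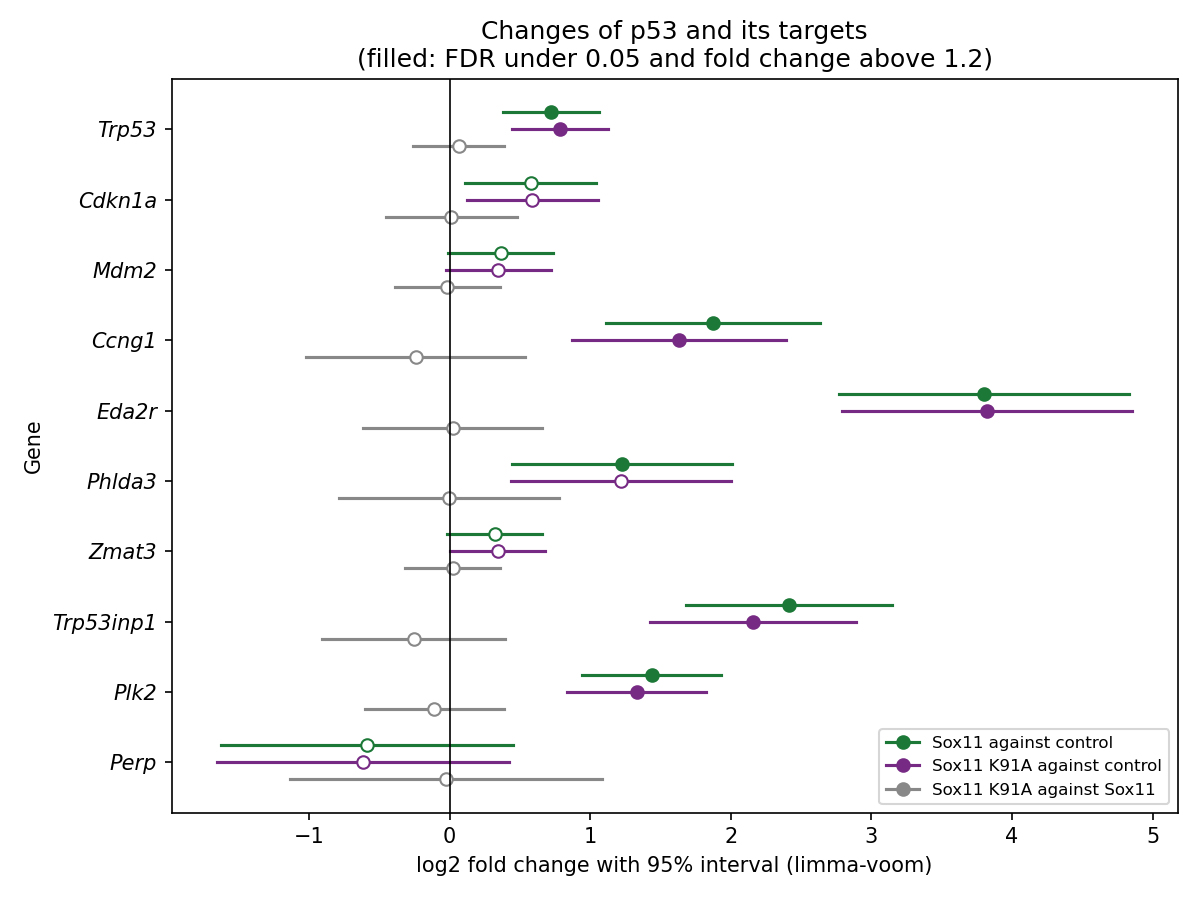
Log2 fold change of each gene with its 95% interval from limma-voom, for Sox11 against control (green), Sox11 K91A against control (purple) and Sox11 K91A against Sox11 (grey). Filled points passed the test. The green and purple points of a gene lie close together, from 3.80 and 3.82 for Eda2r down to -0.59 and -0.62 for Perp, and all grey intervals include 0.

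Within each virus group, most of the 10 genes were higher in the library that held more Sox11, which was replicate 2 with the Sox11 AAV and replicate 1 with the Sox11 K91A AAV. In both groups Ccng1, Cdkn1a, Mdm2, Perp, Phlda3, Plk2 and Trp53inp1 were higher in that library, 7 of 10 genes, where 32.7% of all genes were. All 10 genes were higher in replicate 1 than in replicate 2 of Sox11 K91A, where 50.0% of all genes were higher in replicate 2. Their median absolute log2 difference was 0.35 there, against 0.14 for all genes. Between the Sox11 libraries it was 0.19 against 0.23, so the 10 genes differed no more than a typical gene there. Replicates also differed without any virus encoding Sox11. In control, 7 of 10 genes were higher in replicate 2 than in replicate 1, where 50.15% of all genes were. The median absolute log2 difference of the 10 genes in control was 0.62, against 0.30 for all genes. The part of the Sox11 level in these differences was not tested.

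Among the 45 other p53 targets, 44 were tested. With Sox11, 10 rose and 5 fell, which is 34.1% against 20.1% of all genes tested (9.96% higher and 10.2% lower), and with Sox11 K91A 10 rose and 4 fell, which is 31.8% against 10.6% of all genes (5.81% higher and 4.81% lower). The median log2 fold change of these targets was 0.28 with Sox11 and 0.19 with Sox11 K91A. Targets linked to cell death were among the highest. Pmaip1, which encodes Noxa, a BH3-only protein that neutralises survival proteins of the BCL2 family, was at 2.075 and 4.333 CPM in control, 31.99 and 39.82 with Sox11, and 32.65 and 24.49 with Sox11 K91A. It rose by 3.52 on the log2 scale with Sox11 (SE 0.38, limma-voom adjusted p = 0.011) and by 3.18 with Sox11 K91A (SE 0.38, limma-voom adjusted p = 0.014). Pidd1, a death domain protein that activates caspase-2, rose by 2.37 and 2.25 on the log2 scale (limma-voom adjusted p = 0.0192 and 0.031), and Apaf1, the core of the apoptosome, by 1.52 and 1.26 (limma-voom adjusted p = 0.0127 and 0.0243). Aen, an exonuclease that digests DNA in dying cells, rose by 0.92 in both comparisons (limma-voom adjusted p = 0.0324 and 0.046). Bcl6, a transcriptional repressor, fell, by 2.12 and 2.11 on the log2 scale (limma-voom adjusted p = 0.0195 and 0.0281). In all, 4 of the 14 targets linked to cell death rose and 1 fell with each virus, or 35.7%.

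Bax, Bbc3 and Fas, the best-known death effectors among the targets, did not pass the test. Bax, which permeabilises the mitochondrial membrane, was at 62.26 and 100.4 CPM in control and between 78.49 and 93.1 in the virus libraries, inside the control range, with log2 fold changes of 0.03 and 0.15 (limma-voom adjusted p = 0.94 and 0.704). Bbc3, which encodes Puma, was at 59.01 and 93.63 CPM in control, 119.9 and 153.2 with Sox11, and 147.7 and 113.6 with Sox11 K91A. Its libraries did not overlap with control, but its log2 fold changes of 0.86 and 0.80 were not called (limma-voom adjusted p = 0.0564 and 0.0904). The death receptor gene Fas had at most 18 counts in any library and was not called (limma-voom adjusted p = 0.227 and 0.119). Gadd45a, a growth arrest and DNA damage gene, had log2 fold changes of 0.05 and -0.07 (limma-voom adjusted p = 0.941 and 0.926), with control libraries at 7.658 and 16.71 CPM on either side of all 4 virus libraries.

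Of 10 targets linked to growth arrest, 2 rose and 1 fell with Sox11 and 2 rose with Sox11 K91A, which is 30% and 20% against 20.1% and 10.6% of all genes. Psrc1, which encodes a microtubule-binding protein of the spindle, rose by 3.20 and 3.47 on the log2 scale (SE 0.63 and 0.62, limma-voom adjusted p = 0.0206 and 0.0251). It was low and uneven in control, at 0.7514 and 3.191 CPM from 21 and 123 counts. It reached 17.22 and 14.3 CPM with Sox11, and 24.39 and 14.4 with Sox11 K91A. Sesn2, a stress-induced inhibitor of mTORC1, rose by 1.66 and 1.76 (limma-voom adjusted p = 0.0115 and 0.014). The immediate early response gene Ier5 had a log2 fold change of -0.46 in both comparisons and fell with Sox11 alone by the test (limma-voom adjusted p = 0.0467 and 0.0632), and that difference between the viruses was -7e-04 on the log2 scale. Of 13 genes of mitosis, 10 were tested, and limma-voom called 0 with either virus, with 2 at an unadjusted p under 0.05 in each comparison. Their summed level was between 12.31 and 18.86 TPM in all libraries.

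Called shares in the other lists stand beside the same 20.1% and 10.6% of all genes. Of 5 targets in DNA repair, Xpc and Ercc5, both of nucleotide excision repair, rose with each virus, or 40%. Xpc rose by 0.81 and 0.77 on the log2 scale (limma-voom adjusted p = 0.0195 and 0.0306), and Ercc5 by 0.81 and 0.79 (limma-voom adjusted p = 0.0201 and 0.0305). Of 9 targets in metabolism, 2 rose and 1 fell with each virus, or 33.3%. Lpin1, a phosphatidate phosphatase, rose by 1.18 and 1.14 (limma-voom adjusted p = 0.0128 and 0.0199), and Cpt1c, a neuronal relative of the carnitine palmitoyltransferases, by 0.68 and 0.79 (limma-voom adjusted p = 0.0421 and 0.042). Gls2, a glutaminase, fell by 1.56 and 1.47 on the log2 scale (limma-voom adjusted p = 0.0227 and 0.0357). Of 6 secreted and matrix targets tested, 0 were called higher and 2 lower with each virus, or 33.3%, where 10.2% and 4.81% of all genes were called lower. Thbs1, which encodes the matrix protein thrombospondin 1, fell by 1.58 and 1.56 (limma-voom adjusted p = 0.0134 and 0.0199), and Steap3, a ferrireductase that also takes part in secretion, by 2.01 and 1.45 (limma-voom adjusted p = 0.02 and 0.0484).

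**Figure D4:**
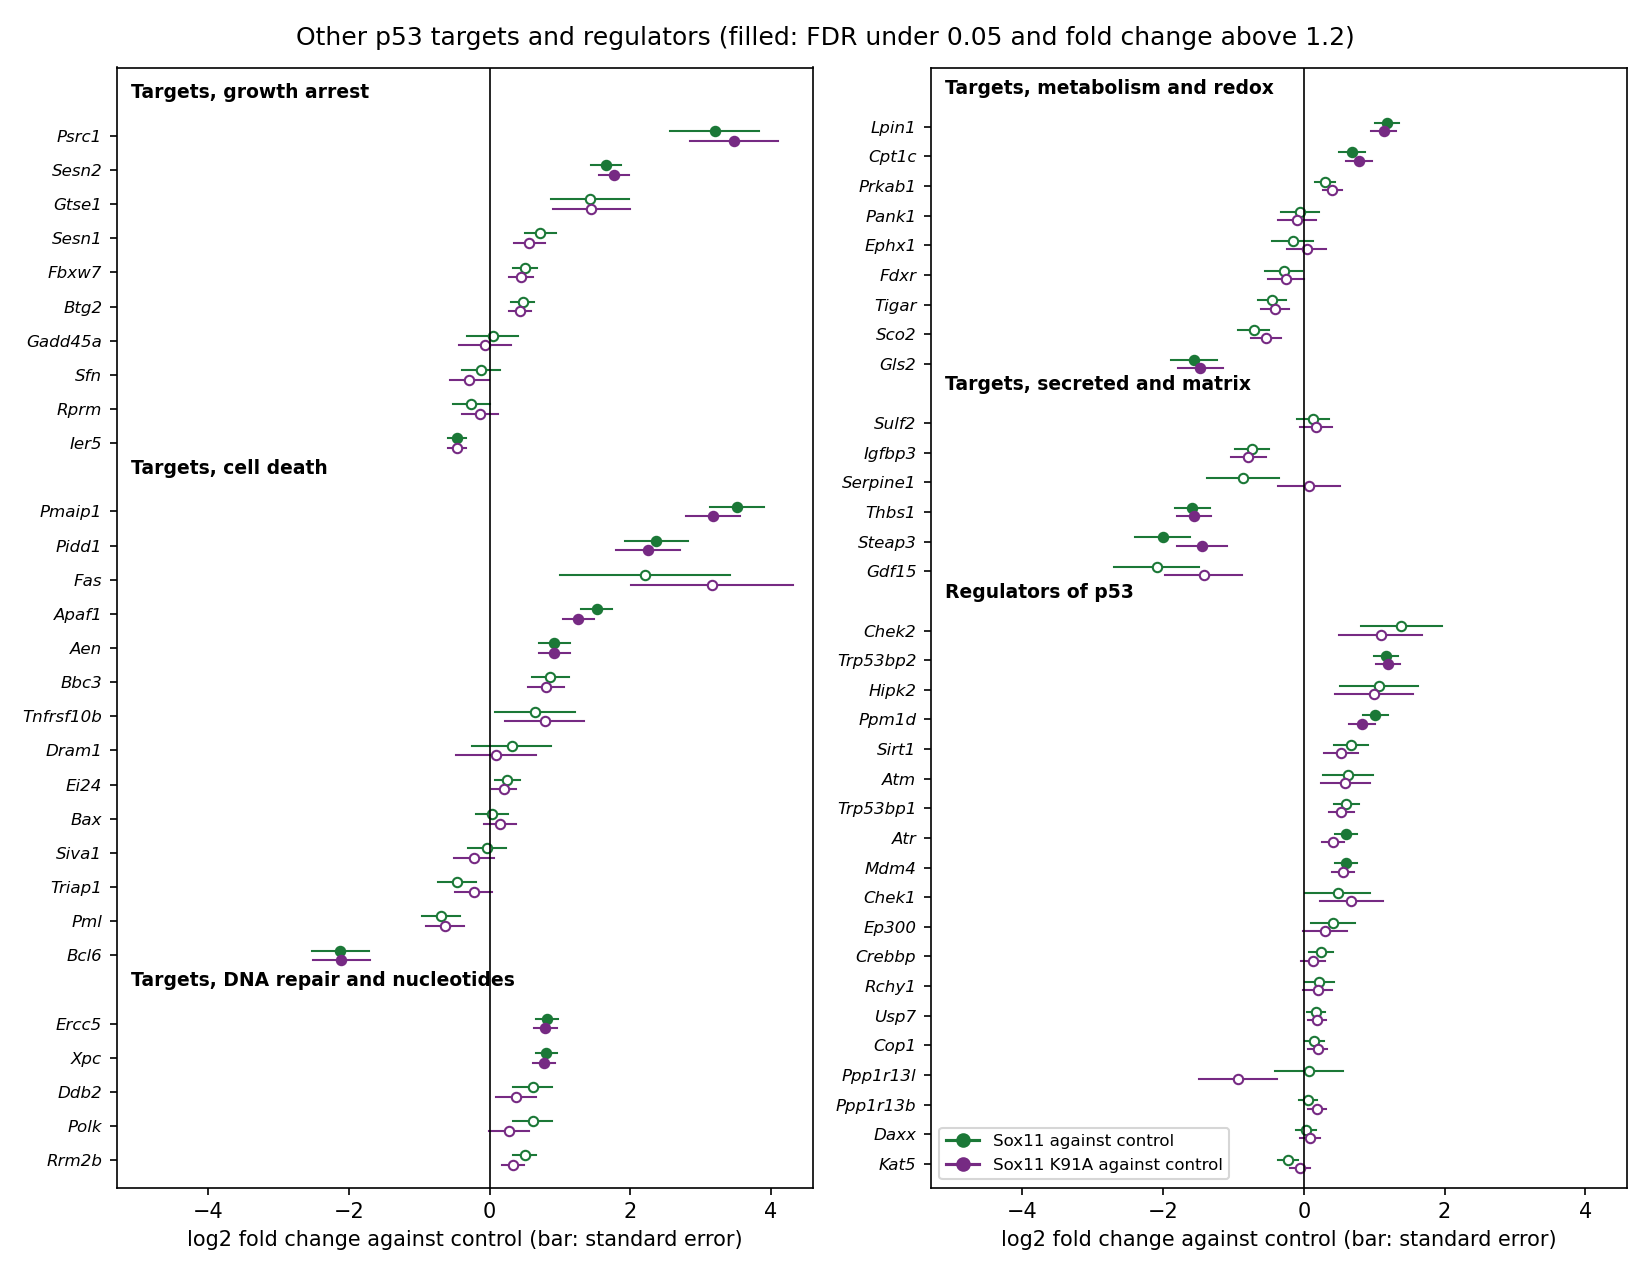
Log2 fold change against control, with its standard error, of the other p53 targets by role and of the regulators of p53, for Sox11 (green) and Sox11 K91A (purple). Filled points passed the test. Filled points lie on both sides of 0, from 3.52 for Pmaip1 to -2.12 for Bcl6 with Sox11.

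Of the regulators of p53, 20 were matched and 19 tested. With Sox11, 4 rose, namely Ppm1d, Trp53bp2, Mdm4 and Atr, and with Sox11 K91A 2 rose, namely Ppm1d and Trp53bp2. These shares, 21.1% and 10.5%, were near the 20.1% and 10.6% called among all genes, so the counts are no result about the regulators as a list. Ppm1d encodes Wip1, a phosphatase that turns p53 off and is itself a p53 target. It was at 20.79 and 22.86 CPM in control, 39.56 and 49.26 with Sox11, and 41.86 and 35.94 with Sox11 K91A, and it rose by 1.02 and 0.83 on the log2 scale (limma-voom adjusted p = 0.0164 and 0.0359). Trp53bp2, which encodes a protein that binds p53 and promotes its death targets, rose 2.24-fold and 2.29-fold (limma-voom adjusted p = 0.0128 and 0.0189). Mdm4, the partner of Mdm2 that blocks p53, rose by 0.60 with Sox11 (limma-voom adjusted p = 0.0396), while its 0.55 with Sox11 K91A did not pass the test (limma-voom adjusted p = 0.0658). Atr, a kinase of the DNA damage checkpoint, rose by 0.60 with Sox11 (limma-voom adjusted p = 0.037) and had 0.42 as its log2 fold change with Sox11 K91A (limma-voom adjusted p = 0.125). None of these 4 differed between the viruses by the test.

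The lists of markers of other cells moved in part. The 6 astrocyte and Müller glia markers summed to 80.91 and 87.87 TPM in control and to between 209.6 and 257 TPM with the viruses. Nearly all of this was Glul, glutamine synthetase, at 68.59 and 80.58 TPM in control and between 203.06 and 247.59 TPM with the viruses, and Glul was the 1 gene of the list called. Rlbp1 had 1.145 and 3.736 CPM in control and between 0.182 and 0.6938 CPM with the viruses and was not called (limma-voom adjusted p = 0.0901 and 0.103), Gfap was at 0 in every library, and Aqp4 reached at most 0.1 TPM. With Sox11, 1 of the 4 tested genes of this list had a positive log2 fold change.

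The 4 amacrine markers summed to 61.05 TPM in control replicate 1 and 17.67 in control replicate 2. They summed to 34.38 and 16.72 TPM in Sox11 replicates 1 and 2, and to 41.49 and 32.06 TPM with Sox11 K91A. Slc6a9 was lower with both viruses, while Tfap2a, at 3.22 and 0.3632 CPM in control and 7.603 and 4.595 with Sox11 K91A, and Tfap2b, at 11.02 and 2.413 CPM in control and 25.82 and 16.67 with Sox11 K91A, were not called (limma-voom adjusted p = 0.106 and 0.118). The bipolar markers summed to 20.68 and 29.39 TPM in control and between 14.21 and 15.43 TPM with the viruses, with Prkca lower with both. The oligodendrocyte list summed to between 12.61 and 24.2 TPM, nearly all of it Mbp, which lay between 12.2 and 24.07 TPM in all libraries and was not called. Pdgfra of that list was higher with Sox11, from at most 0.06 TPM in control to 0.27 and 0.28, and Olig2 was at 0 in every library. Of the 5 endothelial markers, 3 were tested, and Pecam1 and Tek were called higher with Sox11 K91A. Neither was called with Sox11, but there too both lay above the control libraries. Pecam1 was at 1.456 and 1.569 CPM with Sox11 against 0.501 and 0.3892 in control, and Tek at 0.6187 and 0.5732 against 0.1431 and 0.1038. The 5 markers summed to 1.41 and 1.86 TPM in control and to at most 5.02 TPM in any library. Tested were 2 of 5 markers of photoreceptors, 2 of 7 of microglia, and 7 of 7 of fibroblasts and pericytes. The rest were too low to pass the filter. Of those tested, limma-voom called 0 with either virus, and 0 had an unadjusted p under 0.05. The fibroblast and pericyte markers summed to 12.09 TPM in Sox11 replicate 2 and to between 3.77 and 6.34 TPM in all other libraries. The part of other cells in the changes of the p53 targets was not tested.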

How the data were processed

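RNA-seq libraries of cultured mouse RGCs, 2 per group, were analysed. Per the labels and the study's methods, reads were aligned to mm10 with STAR and counted with RSEM, whose versions and use of strand are not given in the sources used here. The authors deposited expected counts, which are not normalized and were rounded to whole numbers here, and TPM, which share a common sum across libraries. Rows that are no Ensembl gene held at most 1 count per library and were left out. Symbols and coordinates came from GENCODE M21 on GRCm38 and promoter windows from RefSeq. Genes were filtered with filterByExpr and scaled by TMM (factors 0.9847 to 1.04) in edgeR 4.0.16, then tested with limma-voom in limma 3.58.1 and R 4.3.3, all 6 libraries in a single fit without covariates. Adjusted p-values are two-sided. DESeq2 1.42.0 was an alternative. Plots used Python 3.11.15. The fit was tested on simulated data. Genes named are the 10, the listed genes that passed the test, and a few fixed by name. The members and lists were chosen with earlier results of these data known, and the motif rule was widened after a first search of the windows. Depth limits precision for the low genes Perp, Fas and Trp73, and for Psrc1 in control.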

Additional observations from a re-analysis of the deposited data

How the results depend on the processing

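With 2 libraries per group, the counts of calls depended on single libraries and on the model, and the cause was not tested. Leaving out 1 library at a time, or control replicate 2 with Sox11 replicate 2 (chosen after seeing the data), the calls with Sox11 ranged from 0 (without Sox11 replicate 2) to 3753 for all genes, 0 to 7 for the 10 genes and 0 to 15 for the other targets. With Sox11 K91A they ranged from 0 (without control replicate 2) to 4108 for all genes, 0 to 8 for the 10 genes and 0 to 24 for the other targets. A group left with 1 library was assumed to vary like the others, and with both libraries left out the spread came from the Sox11 K91A pair alone. The single losses gave at most 2563 calls of all genes with Sox11 K91A, 1790 with Sox11 without control replicate 2, and 19 and 319 with Sox11 K91A without its replicates 1 and 2. Of all genes, sample quality weights called 979 and the fit of only the 2 groups 1598 with Sox11, DESeq2 called 3144 with Sox11 K91A and 2 between the viruses, limma-trend on log2(TPM + 1) called 936 with Sox11 K91A, and on log2(TPM + 0.1) 2107 with Sox11 and 896 with Sox11 K91A. Of the other targets, quality weights called 6 with Sox11, and either TPM scale called 9 with Sox11 K91A.

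Deviations of same-numbered replicates correlated at 0.259 between Sox11 and control. The correlation was -0.0448 between Sox11 K91A and control and -0.282 between Sox11 K91A and Sox11. The numbers thus do not mark the same pairing in all groups, although control replicate 2 and Sox11 replicate 2 stood apart together. With the replicate block, 2679 genes, 6 of the 10 and 13 other targets were called with Sox11, and 1402, 5 and 12 with Sox11 K91A. With the numbers of Sox11 K91A exchanged the block called 0 genes between the viruses. A block for the libraries that stand apart, chosen after seeing the data, called 4562 genes with Sox11 and 2894 with Sox11 K91A, and 23 other targets with Sox11.

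The 9 genes that were higher kept a positive log2 fold change under all 20 alternatives. Their virus libraries were all above both control libraries, so the sign without a library could hardly turn and is no test. Perp changed sign without control replicate 2, ranging from -1.097 to 0.042 with Sox11 and from -1.125 to 0.019 with Sox11 K91A over the libraries left out. Between the viruses, where no gene of the 10 was called under any alternative, signs turned for all of them except Trp53. Over the libraries left out, the log2 fold change ranged from -0.089 to 0.07 for Mdm2, -0.496 to 0.014 for Ccng1, -0.146 to 0.173 for Cdkn1a, -0.28 to 0.317 for Eda2r, -0.235 to 0.227 for Phlda3, -0.084 to 0.139 for Zmat3, -0.504 to 0.005 for Trp53inp1, -0.295 to 0.082 for Plk2 and -0.129 to 0.099 for Perp. It was 0.012 for Phlda3 by edgeR's quasi-likelihood test and by DESeq2, and 0.001 with all genes of at least 1 count. On log2(TPM + 1) it was -0.042 for Cdkn1a, -0.072 for Eda2r and -0.037 for Zmat3, and on log2(TPM + 0.1) it was -0.042, -0.077 and -0.038. With the block for the libraries that stand apart it was 0.106 for Mdm2, 0.078 for Ccng1, -0.126 for Eda2r, 0.278 for Phlda3, -0.019 for Zmat3, 0.058 for Trp53inp1 and 0.419 for Perp.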
